A study of Mus musculus with 6 samples.

Results

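The SF3A and SF3B genes encode the protein subunits that make the U2 small nuclear ribonucleoprotein (U2 snRNP) able to grip the branch site of an intron. They were taken by gene symbol from the deposited table: Sf3a1, Sf3a2, Sf3a3, Sf3b1, Sf3b2, Sf3b3, Sf3b4, Sf3b5 and Sf3b6, which are 9 of its 56748 genes. The family was chosen by measured values of this same contrast, since Sf3b3 was already known to be among the genes with the smallest p-values between PLEA and saline (rank 46 of 17584 tested). The values of this contrast are therefore a description of the members and support nothing beyond it.

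The libraries are 6 RNA-seq libraries of brain tissue taken at day 3, described as infarcted cortex. The mice were wild-type C57 males. All mice had a light-induced clot in the left hemisphere (an intravenous agent at 100 mg/kg, followed by 5 minutes under a laser beam of 1.5 mm at 532 nm and 250 mW). A tail vein injection of 100 µL followed 2 hours after the stroke, of saline for 3 libraries and of PLEA nanoparticles for the other 3. The labels do not explain PLEA, do not name the agent and leave unsaid whether each replicate is another mouse. The p-values here reflect only how much these libraries differ within a group, which may be technical. No unlesioned tissue was analysed here, and the comparison asks how transcript levels differed between the treatments.

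In background terms, splicing begins when the U1 snRNP marks the start of an intron and SF1 and the U2AF proteins mark its branch site and end. The U2 snRNP then replaces SF1, with SF3A tying SF3B to the U2 core and SF3B closing around the branch-site adenosine. The same SF3B proteins serve the minor spliceosome, and SF3B3 and SF3B5 are also found in the SAGA chromatin complex. Neurons rely on extensive alternative splicing, and SF3 subunits are made in most cell types, so the genes mark no particular cell of the cortex.

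Promoter sequences (RefSeq, build GRCm38.p6) were found for 7 of the 9 genes, all but Sf3b4 and Sf3b5. The part of each window that lies before the start and outside every GENCODE M21 exon is shown for 3 genes. These are Sf3b3, which had the largest difference between the groups, Sf3b1, the family's most counted gene, and Sf3b6, which had the lowest fold change. They come from chr8:110846813-110847023, chr1:55027482-55027728 and chr12:4817358-4817543, on the minus, minus and plus strand. Capitals mark motif letters from the search described after them, and no pair of marked motifs overlaps.
Sf3b3: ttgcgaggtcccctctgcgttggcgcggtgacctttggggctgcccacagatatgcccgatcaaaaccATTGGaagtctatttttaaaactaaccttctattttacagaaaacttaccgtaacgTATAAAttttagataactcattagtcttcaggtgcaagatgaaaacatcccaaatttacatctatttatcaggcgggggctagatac
Sf3b1: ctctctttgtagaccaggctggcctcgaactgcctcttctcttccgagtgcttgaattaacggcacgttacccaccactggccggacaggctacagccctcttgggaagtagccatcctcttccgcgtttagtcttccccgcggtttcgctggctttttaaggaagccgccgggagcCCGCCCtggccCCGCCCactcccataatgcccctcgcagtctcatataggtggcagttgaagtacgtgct
Sf3b6: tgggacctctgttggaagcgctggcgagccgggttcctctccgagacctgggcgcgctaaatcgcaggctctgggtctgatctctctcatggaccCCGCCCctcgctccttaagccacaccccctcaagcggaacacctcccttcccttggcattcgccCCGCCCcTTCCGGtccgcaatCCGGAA

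The Sf3b3 stretch holds 41.7% G and C, against 58.7% for Sf3b1 and 65.1% for Sf3b6, and in it TATAAA occurs 1 time and CCAAT 1 time (as ATTGG on the other strand). The Sf3b1 stretch holds 2 GC boxes (GGGCGG, here as CCGCCC), and that of Sf3b6 holds 2 GC boxes and 2 copies of the ETS core CCGGAA. Over the full windows of 300 bases (250 before and 50 after the start), with both strands searched, CCGGAA was found in 6 of the 7 genes and in 14.9% of 32851 mouse windows. GGGCGG was found in 4 of the 7 and in 35.7% of windows, and TATAAA in Sf3b3 alone among the 7 and in 13.6% of windows. CCAAT was found in 2 genes (37.4% of windows), the YY1 letters ATGGCGG in Sf3a1 and Sf3b3 (4.05%), the NRF1 pattern (GCGC, any 2 bases, GCGC) in Sf3a2 (6.23%) and the CRE palindrome TGACGTCA in none of the 7 (1.79%). The 7 genes had 20 to 41 CpG pairs per window, against a median of 7.0 over all windows. A match is a description of letters and does not show that a factor binds.

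The Sf3b3 stretch also lies inside the annotated span of Cog4, which encodes a subunit of a Golgi tethering complex and runs the other way. In GENCODE M21 it is intronic to the Cog4 transcript that starts first and precedes the first exon of the other Cog4 transcripts there. The spans of Sf3b3 and Cog4 overlap by 188 bases. Opposite-strand neighbours that start within 1000 bases are also annotated at Sf3a1 (Ccdc157, 57 bases between starts), Sf3a2 (Plekhj1, 428 bases), Sf3b2 (AC125059.3, 259 bases) and Sf3b4 (Gm17690, 84 bases), the last 2 being antisense genes.

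Sf3b1 and Sf3b2 were the best represented members. Levels are given as CPM (counts scaled to a common library size by library total and TMM factor), and for comparisons between genes as CPM per kb of the gene length in the deposited table. On the per-length scale, means over the 6 libraries were 35.7 for Sf3b2 and 35.1 for Sf3b1, with ranges that overlapped. Next came Sf3b4 at 16.2, Sf3a1 at 14.1, Sf3a2 at 12.6, Sf3a3 at 10.8, Sf3b6 at 10.7 and Sf3b3 at 9.92 CPM per kb, in which each neighbouring pair overlapped in range. Sf3b5 was lowest at 3.96 (3.28 to 4.57), below the range of Sf3b3 (7.77 to 13.0). The gap between Sf3b1 (32.3 to 37.7) and Sf3b4 (14.3 to 17.3) was the other break in the order.

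The middle of this order rests on gene length. The table gives Sf3b3 10919 bases, while its longest coding transcript in GENCODE M21 has 4525, and for Sf3b6 the lengths are 2854 and 1180. Per kb of coding transcript, Sf3b6 had rank 3 with 25.8 and Sf3b3 rank 4 with 23.9 CPM per kb. Ahead of them were Sf3b2 with 75.5 and Sf3b1 with 64.4. The last place of Sf3b5 was not tested by this change of scale. Its length was 3841 bases on both scales and every other member's became shorter, so Sf3b5, already lowest, could not move. By CPM without division by length Sf3b5 also had rank 9.

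**Figure D1:**
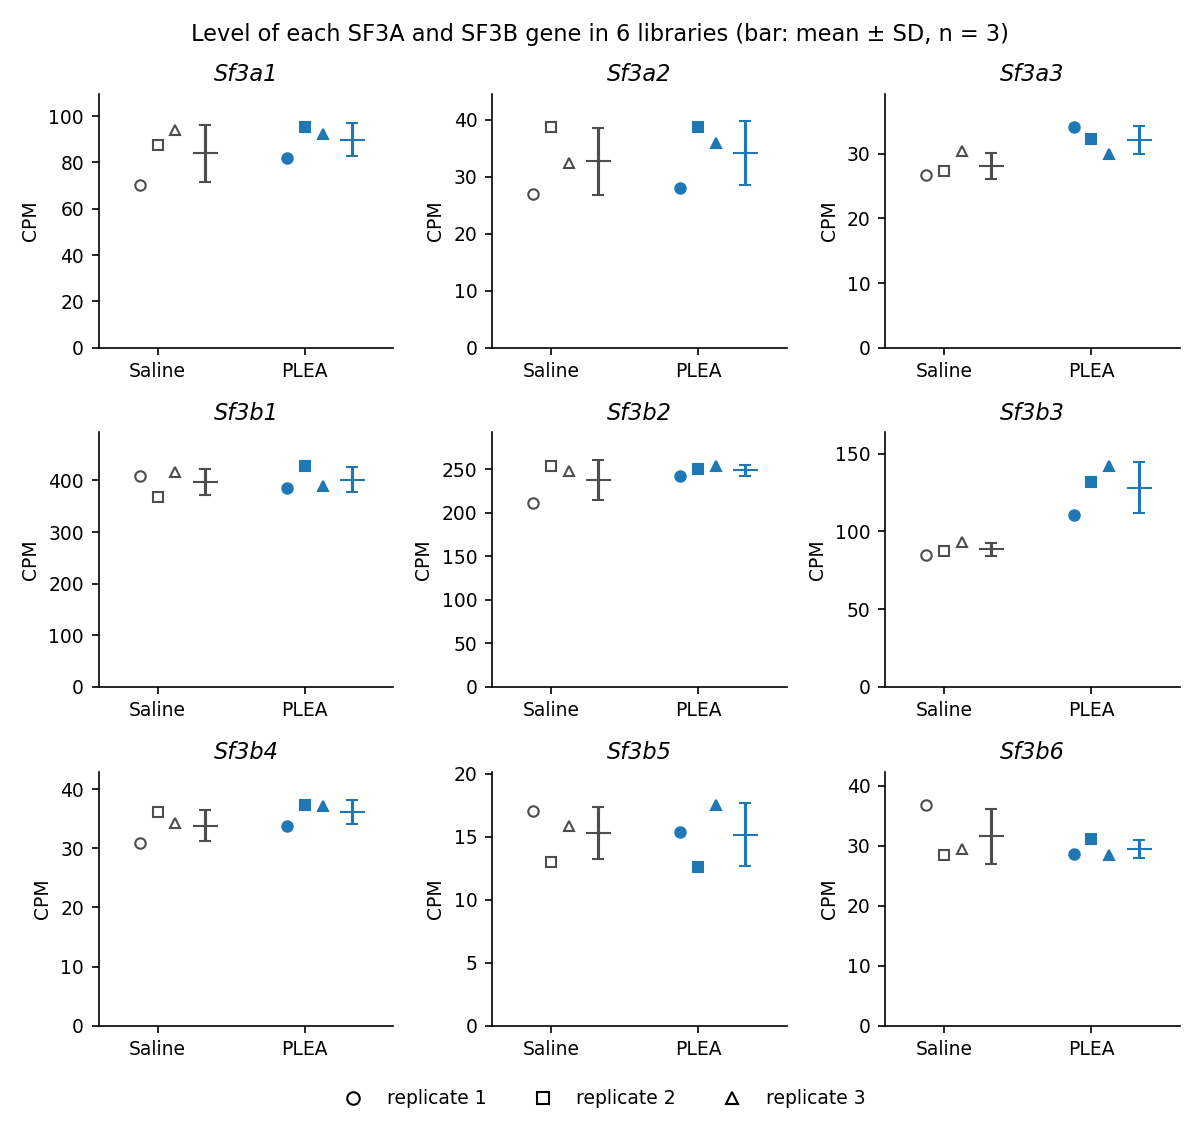
CPM (vertical axes, each from 0) of the 9 genes in the 3 saline and 3 PLEA libraries (horizontal axes), with symbols for replicate numbers and bars for mean ± SD (n = 3). The 3 PLEA points of Sf3b3 (110.3 to 142 CPM) lie above its 3 saline points (84.8 to 93.1 CPM), and the groups overlap in the other 8 panels.

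Sf3b3 encodes the large scaffold of SF3B, built from beta-propellers and related to the DNA-repair protein DDB1. Saline libraries 1, 2 and 3 held Sf3b3 at 84.8, 87.5 and 93.1 CPM, and PLEA libraries 1, 2 and 3 at 110.3, 132 and 142 CPM. Every PLEA library was above every saline library, and the PLEA libraries differed more among themselves than the saline ones did. The saline mean was 88.5 ± 4.24 CPM (SD, n = 3) and the PLEA mean 128 ± 16.3 CPM (SD, n = 3). This is a 1.45-fold difference, 0.53 on the log2 scale (SE 0.13, 95% interval 0.25 to 0.82). After Benjamini-Hochberg adjustment over 17584 genes in edgeR's quasi-likelihood test the adjusted p was 0.818, so Sf3b3 did not pass.

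The raw counts behind these values were 1446, 1513 and 1513 for saline, against 1909, 2323 and 2548 for PLEA, where counting error alone gives a coefficient of variation (CV) of 2.31% at the mean count. In the deposited table Sf3b3 lies on the minus strand of chromosome 8, bases 111536871 to 111573419. Its span overlaps that of Cog4, and no source used here gives the strand setting of the counts, so Cog4 reads in the overlap cannot be told apart. Cog4 itself had a saline mean of 32.8 ± 2.05 CPM (SD, n = 3) and a PLEA mean of 34.3 ± 2.18 CPM (SD, n = 3), with overlap and a log2 fold change of 0.065 (SE 0.12, 95% interval -0.20 to 0.33, edgeR adjusted p = 0.932). The 2 snoRNA genes inside the span of Sf3b3, Snord111 and Gm22193, had at most 1 count in any library.

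The SF3A genes overlapped between the groups. Sf3a1, whose protein holds the SF3A trimer together (chromosome 11, bases 4110350 to 4132541), was at 70.2, 87.5 and 93.9 CPM in saline and 82.0, 95.4 and 92.2 CPM in PLEA. Its log2 fold change was 0.099 (SE 0.14, 95% interval -0.22 to 0.41), and saline replicate 1 was the low library. Sf3a2, a zinc-finger subunit that SF3A needs to join U2 (chromosome 10, bases 80634032 to 80640758), was at 26.9, 38.7 and 32.4 CPM in saline and 27.9, 38.8 and 35.9 CPM in PLEA.

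Both groups of Sf3a2 thus ran over nearly the same range, and its log2 fold change was 0.066 (SE 0.18, 95% interval -0.34 to 0.47). Sf3a2 overlaps Plekhj1 on the other strand over 429 bases that are exonic in both. Plekhj1 had 225 to 271 counts per library, against 459 to 684 for Sf3a2. With the strand setting unknown, Plekhj1 reads in the overlap cannot be told apart. Sf3a3, another zinc-finger subunit with that role (chromosome 4, bases 124608569 to 124626253), was at 26.7, 27.3 and 30.5 CPM in saline and 34.2, 32.2 and 30.0 CPM in PLEA. A PLEA library was higher in 8 of the 9 saline and PLEA pairings, the exception being PLEA replicate 3 against saline replicate 3. The log2 fold change of Sf3a3 was 0.19 (SE 0.12, 95% interval -0.085 to 0.47).

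The other SF3B genes lay close to no difference. Sf3b1, the HEAT-repeat clamp around the branch-site adenosine and the target of splicing-modulator drugs (chromosome 1, bases 55024328 to 55066640), was at 408, 367 and 416 CPM in saline and 385, 429 and 390 CPM in PLEA. With 6354 to 7567 counts per library, Sf3b1 was the most counted member and had the smallest relative spread over all 6 libraries, a CV of 5.66%. Its log2 fold change was 0.014 (SE 0.12), with a 95% interval from -0.26 to 0.29.

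Sf3b2, a subunit that binds SF3B4 (chromosome 19, bases 5323960 to 5345483), was at 211, 254 and 248 CPM in saline and 242, 250.0 and 254 CPM in PLEA. Only saline replicate 1 stood low, and the log2 fold change was 0.066 (SE 0.12, 95% interval -0.21 to 0.34). Sf3b4, an RNA-binding subunit that touches the intron upstream of the branch site (chromosome 3, bases 96079648 to 96084880), was at 31.0, 36.2 and 34.3 CPM in saline and 33.7, 37.4 and 37.1 CPM in PLEA. The groups overlapped, with a log2 fold change of 0.094 (SE 0.12, 95% interval -0.18 to 0.37). A processed pseudogene, Gm7935, matches 1278 bases of Sf3b4 at 99.3% identity but had only 1 to 6 counts per library. Low-count transcripts also overlap Sf3b2 (Gm50203, at most 10 counts), Sf3b4 (Gm17690, at most 45) and Sf3a3 (the pseudogene Gm12917, at most 11).

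Sf3b5 and Sf3b6 had log2 fold changes below 0, that of Sf3b5 turning to 0.0012 with upper-quartile scaling. Sf3b5 (chromosome 10, bases 12881087 to 12884927), a small protein packed against SF3B3, was at 17.01, 13.0 and 15.8 CPM in saline and 15.4, 12.6 and 17.6 CPM in PLEA. The groups covered the same range, with a log2 fold change of -0.010 (SE 0.18, 95% interval -0.43 to 0.41). Sf3b6, the subunit that lies beside the branch site (chromosome 12, bases 4867544 to 4877659), was at 36.8, 28.5 and 29.4 CPM in saline and 28.5, 31.2 and 28.5 CPM in PLEA. Saline replicate 1 was the high library, and the log2 fold change was -0.10 (SE 0.14, 95% interval -0.42 to 0.21). Phf5a, a small zinc-finger SF3B subunit outside the list of 9, had a saline mean of 9.92 ± 4.31 CPM (SD, n = 3) and a PLEA mean of 9.97 ± 1.29 CPM (SD, n = 3). At 102 to 235 counts per library its interval was wider than any member's, -0.70 to 0.71 around a log2 fold change of 0.0085. With 1 library left out, Phf5a ran from -0.26 (without saline replicate 2) to 0.37 (without saline replicate 3).

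Of the 9 members, 0 passed the adjusted threshold of 0.05 in edgeR, as did 0 of all 17584 tested genes in either direction (0.0% higher, 0.0% lower). At an unadjusted p under 0.05 the count was 1 member higher (Sf3b3) and 0 lower, against 401 genes higher (2.28%), 630 lower (3.58%) and 5.86% in either direction. DESeq2 called 3 genes higher (0.0178%) and 36 lower (0.213%), none of them members, with an adjusted p of 0.0851 for Sf3b3. Groups did not overlap for 1 of 9 members, higher in PLEA, where 5.16% of tested genes were higher, 5.54% lower and 10.7% either way without overlap. The median log2 fold change was 0.066 over the members and -0.0051 over all tested genes, and 7 of the 9 members were above 0 (49.0% of all tested genes). The intervals of the other 8 members together spanned -0.43 to 0.47. The Sf3b3 interval, 0.25 to 0.82, overlapped each of them but that of Sf3b6 (-0.42 to 0.21). As the family was chosen for Sf3b3, no test of it against the other members was made.

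**Figure D2:**
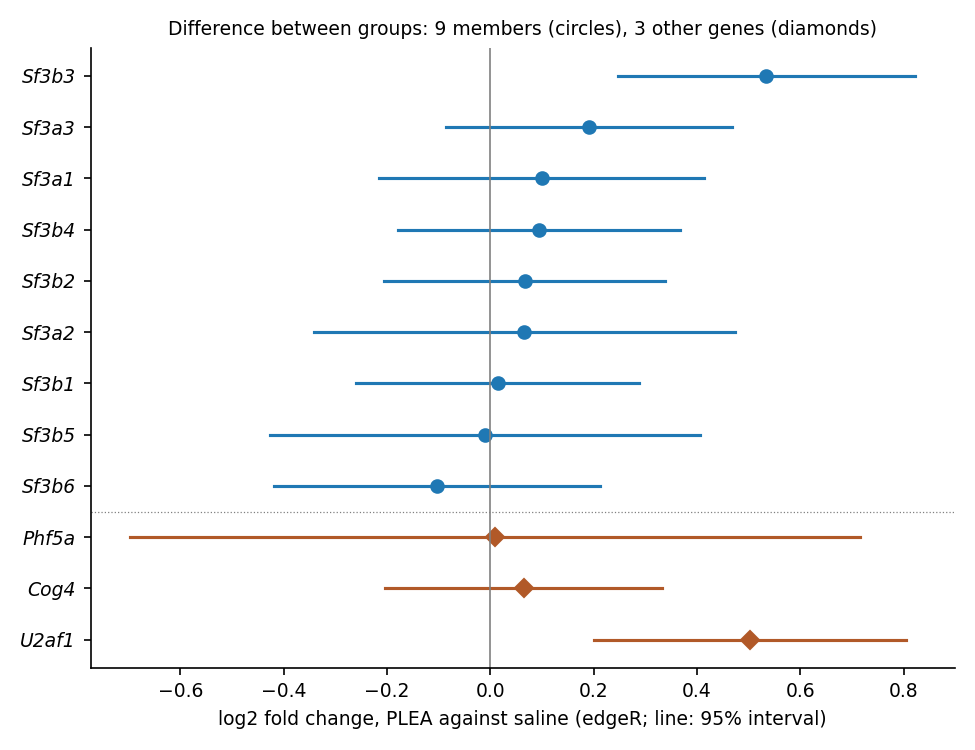
Log2 fold change of PLEA against saline (horizontal axis) with its unadjusted 95% interval for the 9 members (circles) and for Phf5a, Cog4 and U2af1 (diamonds), from edgeR. Among the members only the Sf3b3 interval (0.25 to 0.82) lies wholly on one side of 0, and its adjusted p was 0.818.

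Ratios within a library need no scaling between libraries. Those of Sf3b3 are no separate support, as the family was chosen for the Sf3b3 difference, which they largely restate. Sf3b1 and Cog4 had log2 fold changes of 0.014 and 0.065. Of all counts of the 9 genes, Sf3b3 held 9.29%, 9.30% and 9.38% among saline libraries, against 11.5%, 12.4% and 13.9% among PLEA libraries. The 3 saline libraries were nearly equal, while each PLEA library was higher. Per 100 Sf3b1 counts there were 22.3 ± 1.52 Sf3b3 counts (SD, n = 3) in saline and 31.98 ± 4.08 (SD, n = 3) in PLEA, and the groups did not overlap. Per 100 counts of Cog4, the gene across the shared start region, there were 265, 280 and 265 Sf3b3 counts in saline and 300, 402 and 426 in PLEA.

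Of the other within-family ratios, only Sf3a3 to Sf3a1 and Sf3b6 to Sf3b4 were computed, and both overlapped between the groups. Sf3a3 had 33.9 ± 3.64 counts per 100 Sf3a1 counts (SD, n = 3) in saline and 36.0 ± 4.99 (SD, n = 3) in PLEA. Sf3b6 had 94.5 ± 21.5 counts per 100 Sf3b4 counts (SD, n = 3) in saline and 81.6 ± 4.18 (SD, n = 3) in PLEA, with saline replicate 1 at 119 and the other 5 libraries between 76.8 and 85.8. The summed level of the 8 members without Sf3b3 was 860.2 ± 36.7 CPM (SD, n = 3) for saline, against 887 ± 38.8 CPM (SD, n = 3) for PLEA.

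**Figure D3:**
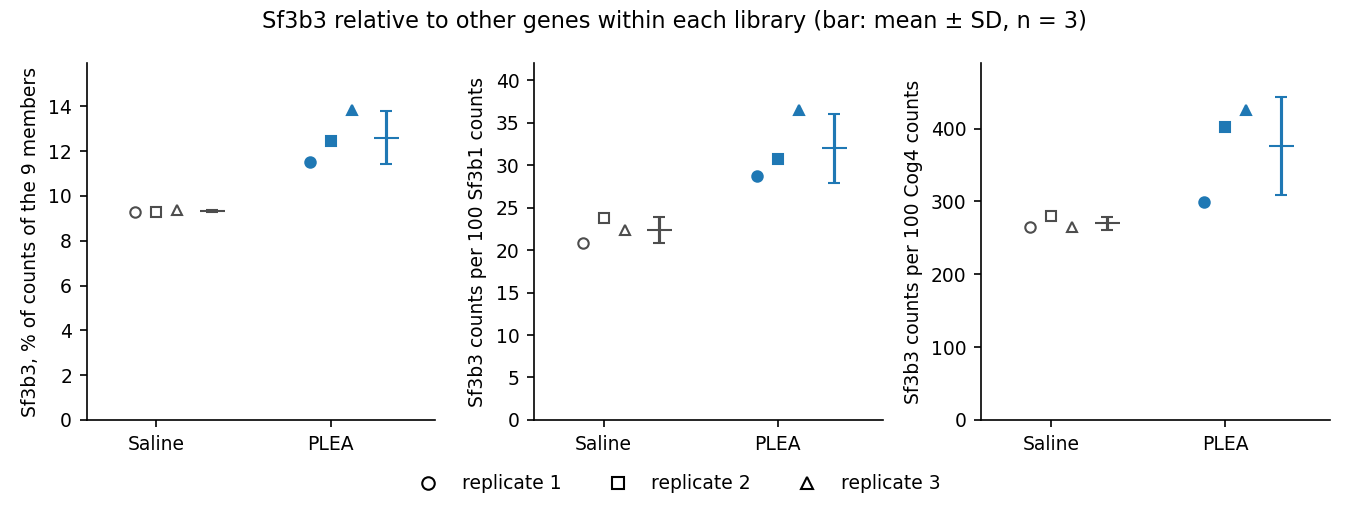
Sf3b3 as a percentage of the counts of the 9 members, per 100 Sf3b1 counts and per 100 Cog4 counts (vertical axes from 0) in each saline and PLEA library, with mean ± SD (n = 3). In each panel the 3 PLEA libraries lie above the 3 saline libraries, and PLEA replicate 1 is the nearest to them. The ratios largely restate the Sf3b3 difference for which the family was chosen.

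The libraries had 16810448 to 17516434 counts, and 2 of them set much of the members' spread. Saline replicate 1 was the lowest of the 6 libraries for 6 members (Sf3a1, Sf3a2, Sf3a3, Sf3b2, Sf3b3 and Sf3b4) and the highest for Sf3b6, and PLEA replicate 2 was the highest for 4 (Sf3a1, Sf3a2, Sf3b1 and Sf3b4). PLEA replicate 3 was the highest for 3 (Sf3b2, Sf3b3 and Sf3b5), and saline replicate 2 the lowest for 2 (Sf3b1 and Sf3b6). Saline replicate 1 and PLEA replicate 2 were the extremes for astrocyte and microglia markers: the 6 astrocyte markers summed to 3004 CPM in saline replicate 1 and 770.1 CPM in PLEA replicate 2 (1195 to 1318 CPM in the others), and the 7 microglia and macrophage markers to 567 and 99.6 CPM (180.3 to 290 CPM in the others). Saline replicate 1 was also highest and PLEA replicate 2 lowest for endothelial (280 and 120 CPM) and meninges markers (156 and 51.6 CPM). The same held for neutrophil markers (23.2 and 3.00 CPM) and cycling-cell markers (109 and 6.06 CPM), in part by narrow margins. Neutrophil markers, of which 1 of 6 passed the filter, were at 23.0 CPM in saline replicate 3. Cycling-cell markers were at 6.26 CPM in PLEA replicate 3. Neuron, striatal, choroid plexus and mitochondrial sums did not have both saline replicate 1 highest and PLEA replicate 2 lowest. The 6 oligodendrocyte markers were highest in saline replicate 2 (5184 CPM) and lowest in PLEA replicate 2 (2598 CPM). Without saline replicate 1, log2 fold changes turned to -0.0055 for Sf3a1, -0.049 for Sf3a2, -0.0045 for Sf3b2, 0.083 for Sf3b5 and 0.030 for Sf3b6, and without PLEA replicate 2 to -0.033 for Sf3a2, -0.036 for Sf3b1 and 0.11 for Sf3b5. With both libraries left out, 4 of 9 members were above 0 with a median of -0.016, and the Sf3b3 log2 fold change was 0.49 (SE 0.17, edgeR adjusted p = 0.978). The part of cell composition in these values was not tested, and in bulk tissue fewer cells of a type and less RNA per cell cannot be told apart.

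Neuron markers (8 genes, among them Rbfox3, Snap25 and Slc17a7) summed to 8402 to 9951 CPM in saline and 8653 to 10326 CPM in PLEA, so neuronal transcripts were present in all 6 libraries. Several other lists had lower values in PLEA. The summed meninges markers (8 genes) did not overlap, at 116 to 156 CPM in saline and 51.6 to 69.1 CPM in PLEA, with 7 of the 8 lower at an unadjusted p under 0.05 (3.58% of all tested genes) and none at 0 in any library. The summed levels of the other lists overlapped, but 0 of 6 endothelial, 0 of 6 astrocyte, 0 of 6 oligodendrocyte and 0 of 7 microglia and macrophage markers had a log2 fold change above 0, with medians of -0.55, -0.63, -0.24 and -0.77. At an unadjusted p under 0.05, 3 endothelial, 3 astrocyte, 0 oligodendrocyte and 1 microglia and macrophage marker were lower. Striatal markers (8 genes) spanned 161 to 1688 CPM among saline libraries, against 739 to 1683 CPM among PLEA libraries. They went the other way, with 8 of 8 above 0 and a median log2 fold change of 0.50 (median SE 0.68). Of these, 0 were higher at an unadjusted p under 0.05. Choroid plexus markers (6 genes) were at 332 CPM in PLEA replicate 3, which had the highest Sf3b3, and at 7.63 to 36.7 CPM in the others. Without PLEA replicate 3 the Sf3b3 log2 fold change was 0.45. The 9 genes of the mitochondrial chromosome, read for RNA quality, summed to 40907 to 58816 CPM in saline against 34425 to 43052 CPM in PLEA, with a median log2 fold change of -0.47 and 6 of 9 lower at an unadjusted p under 0.05. The part of these tissues and of RNA quality in the Sf3b3 values was not tested.

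Genes that work beside SF3A and SF3B were read from 8 lists, with Phf5a apart. Of the 108 tested genes of these lists and Phf5a together, 0 passed the adjusted threshold in edgeR. At an unadjusted p under 0.05 there was 1 higher and 0 lower, against 2.28% and 3.58% of all tested genes. Without overlap, 10 (9.26%) were higher and 1 (0.926%) lower, against 5.16% and 5.54% of all tested genes. The U2 snRNP core, the Sm ring and the U2-specific proteins that SF3A sits on, had 4 of 9 genes above 0 and a median log2 fold change of -0.0096, which turned to 0.0023 with upper-quartile scaling, 0.036 with limma voom and 0.027 with the replicate block. Its lowest p was that of the Sm protein gene Snrpb, with a saline mean of 33.5 ± 5.94 CPM (SD, n = 3) and a PLEA mean of 40.5 ± 1.78 CPM (SD, n = 3).

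Branch site recognition and U2 partners had 11 of 18 genes above 0 and a median of 0.020. The 1 gene with an unadjusted p under 0.05 in any list was here: U2af1, the U2AF subunit that reads the AG at the intron's end. U2af1 was at 24.9, 27.5 and 27.5 CPM in saline and 32.9, 38.5 and 41.8 CPM in PLEA. Its log2 fold change was 0.50 (SE 0.13, 95% interval 0.20 to 0.80, edgeR adjusted p = 0.818). All PLEA libraries lay above all saline libraries, in the same order of PLEA replicates as Sf3b3. The value is uncertain, since the processed pseudogene Gm10232 shares 720 bases at 99.7% identity and had 45 to 63 counts per saline library and 65 to 81 per PLEA library, against 424 to 747 for U2af1. Its partner U2af2, which reads the polypyrimidine tract, stood at 0.19 (SE 0.13), the branch-point binder Sf1 at 0.0037 (SE 0.11), and the helicase genes Ddx46 at -0.088 (SE 0.12) and Dhx15 at -0.17 (SE 0.12).

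The later-acting parts of the spliceosome had small positive medians, and their counts without overlap stand against 5.16% of all tested genes higher. The U4/U6.U5 tri-snRNP list had 13 of 16 genes above 0 and a median of 0.11, with 2 genes higher without overlap: the helicase Snrnp200 at 0.21 (SE 0.12) and the WD-repeat protein Snrnp40 at 0.26 (SE 0.15). The PRP19 and catalytic-step list had 10 of 18 above 0 and a median of 0.077, with 4 higher without overlap, among them Crnkl1 at 0.21 (SE 0.14) and Ctnnbl1 at 0.18 (SE 0.12). Xab2, of the same list, was at 0.30 (SE 0.14).

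In the U1 snRNP list 4 of 8 were above 0, with a median of 0.0095 that turned to -0.0060 without a filter. Snrpc was higher without overlap at 0.15 (SE 0.12) and Luc7l2 lower without overlap at -0.10 (SE 0.11). SR proteins, which mark exons, had 8 of 10 above 0 and a median of 0.059. The minor spliceosome, which shares SF3B, had 6 of 9 above 0 and a median of 0.027, and its Scnm1 was higher without overlap at 0.26 (SE 0.13). The SAGA complex, which shares SF3B3 and SF3B5, had 12 of 19 tested genes above 0 and a median of 0.047. Its acetyltransferase gene Kat2a was at 0.23 (SE 0.12), while the alternative enzyme Kat2b was at -0.15 (SE 0.15). With 1 library left out, medians ranged from 0.047 to 0.11 for the tri-snRNP list and from 0.00046 to 0.072 for the branch site list, and in the other 6 lists they lay on both sides of 0.

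**Figure D4:**
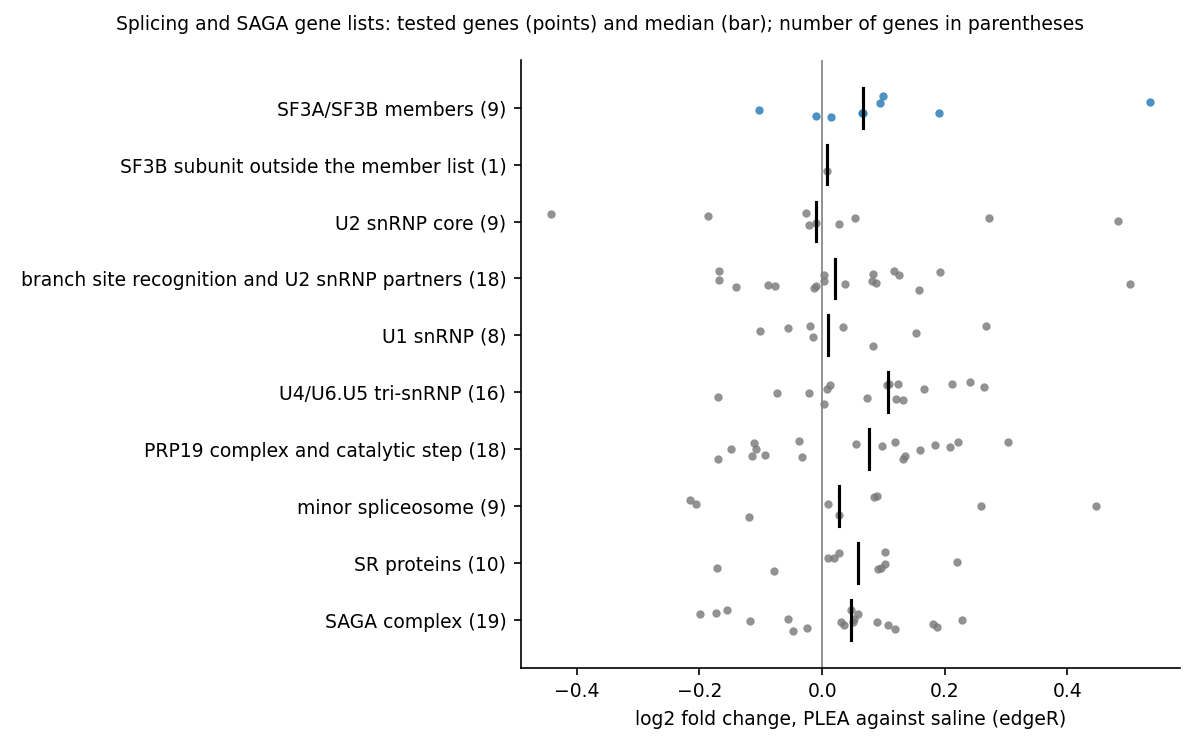
Log2 fold change of PLEA against saline (horizontal axis) for each tested gene of the SF3A and SF3B family (top row) and of the other splicing and SAGA lists, with a bar at each median and the number of tested genes in parentheses. The point farthest right is Sf3b3 at 0.53, U2af1 stands at 0.50 in its row, and list medians lie between -0.01 and 0.11.

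The genes whose log2 CPM followed that of Sf3b3 most closely over the 6 libraries, among 10382 others with a mean of at least 10 CPM, were U2af1 (Pearson r = 0.993), Unkl (0.992), Muc3a (0.988), Hdgfl2 (0.988) and Arl4d (0.985). For each of the 5 the groups did not overlap, as follows from their likeness to a gene that separated them. Arl4d, a small GTPase gene, had a saline mean of 11.4 ± 0.123 CPM (SD, n = 3) and a PLEA mean of 17.8 ± 2.59 CPM (SD, n = 3), and Hdgfl2, a chromatin-reader gene, at 65.3 ± 1.17 and 82.1 ± 7.45 CPM (SD, n = 3 each). With 6 libraries and this many genes, 32 genes exceeded r = 0.95, and the points share library and group. The mean log2 CPM of the 9 members was followed most closely by Wdr18 (0.996), Xab2 (0.995), Cerox1 (0.994), Poldip3 (0.993) and Pdzd2 (0.992), all of which overlapped between the groups.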

How the data were processed

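Per the file headers, the deposited values are gene-level counts for 6 libraries, whole numbers with no scaling, beside each gene's length in bases. RNA entered a SMARTer mRNA library preparation (1.3 µg), per the labels' protocols. For aligner, counter and strandedness, nothing is given in the sources used here. GRCm38 and mm10 appear in the submitters' processing notes, but 0 of the 9 members have their GENCODE M21 (GRCm38) coordinates while 9 have the same span, so coordinates from the deposited table carry no build. Groups came from the titles.

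The main test was edgeR's quasi-likelihood F test (version 4.0.16, R 4.3.3), on counts kept by filterByExpr with TMM factors and group as the only term (Benjamini-Hochberg over 17584 genes, threshold 0.05). The procedure was also run on simulated counts drawn independently for each gene, which does not set its error rate in these libraries. The SE came from the fold change and the F value, and 95% intervals use the residual degrees of freedom of the fit. Log2 CPM used a prior count of 2. Copies were searched with BLASTN 2.17.0 (identity of at least 95% over at least 100 bases of GENCODE M21 transcripts). Alternatives were DESeq2 1.42.0, limma 3.58.1 voom, RLE and upper-quartile factors, 2 other filters, a replicate block and leaving out libraries. Named genes were the members, Phf5a, genes among the up to 4 per list with the smallest p and the 5 most alike in pattern. Sf1 and Ddx46 fell outside this rule, as did neighbouring genes, copies and cell markers. Members and lists were chosen with earlier results of these data known. No pair of libraries agreed within sampling noise (chi-square per degree of freedom of 14.1 to 53.0), so each was counted as 1 sample.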

Additional observations from a re-analysis of the deposited data

How the results depend on the processing

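The log2 fold changes of Sf3b3, U2af1, Sf3a3 and Sf3b4 kept their sign in all 14 alternatives run. So did that of Cog4, which was 0.065 (SE 0.12) in the reported fit. The alternatives reuse the same 6 libraries, so a kept sign is no independent support. No member passed the adjusted threshold in any of them. For Sf3b3 the log2 fold changes ranged from 0.45 to 0.62 and its adjusted p from 0.0851 (DESeq2) to 0.9997. Genes called higher and lower were 0 and 0 in the reported edgeR fit, 3 and 36 with DESeq2 and 7 and 31 without a filter, and the cause was not tested. Without the filter Sf3b1 turned to -0.0018, and with upper-quartile factors Sf3b5 turned to 0.0012.

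Fits without 1 library called 0 to 0 genes higher, 0 to 1 lower (the 1 without saline replicate 1), and had 6 to 8 members above 0 and a member median from 0.042 to 0.13, the highest without PLEA replicate 1. Log2 fold changes then ranged from -0.0055 to 0.18 for Sf3a1, -0.049 to 0.20 for Sf3a2, -0.044 to 0.043 for Sf3b1, -0.0045 to 0.11 for Sf3b2, 0.042 to 0.14 for Sf3b4, -0.13 to 0.11 for Sf3b5 and -0.18 to 0.030 for Sf3b6. Leaving out saline replicate 1 turned Sf3a1, Sf3a2, Sf3b2, Sf3b5 and Sf3b6. Leaving out saline replicate 1 and PLEA replicate 2 together, an alternative chosen after seeing the data, gave 1 gene lower, 4 members above 0, a median of -0.016, and -0.059 for Sf3a1, -0.16 for Sf3a2, -0.016 for Sf3b1, -0.016 for Sf3b2 and 0.19 for Sf3b5. The order of levels per kb of coding transcript was also added after seeing the data.

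Same-numbered libraries did not deviate together in every pair (r = 0.37, 0.17 and -0.018 for numbers 1 to 3), so the numbers were not taken as pairs. With the replicate block 0 genes were called in either direction, 7 members were above 0 with a median of 0.071, and Sf3b3 was at 0.53 with an edgeR adjusted p of 0.395. At 222 to 314 counts per library Sf3b5 had a counting CV of 6.17%, the highest of the members.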
